A study of Mus musculus with 6 samples.

Results

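The sodium pump, its FXYD regulators and the ion exchangers and cotransporters of the solute carrier families 4, 9, 12, 20, 24, 26 and 34 were compared between muscle and epithelium sorted from the embryonic mouse trachea. Members were taken by a rule on gene symbols, which uses no values but was set with earlier results of these data known. The rule takes every row of the deposited gene count table named Slc4a, Slc9a, Slc12a, Slc20a, Slc24a, Slc26a or Slc34a with a number. It also takes the sodium pump subunits named Atp1a or Atp1b with a number, the related proton pump Atp12a, and Fxyd1 to Fxyd7. This gave 64 of the 23478 genes in the table, and all 64 passed the filter on low counts. The tissue was taken at embryonic day 13.5. All embryos, in both groups, carried floxed Bmp4 alleles (Bmp4 f/f) together with eGFP under gamma smooth muscle actin control, and the labels call every sample a control and name no Cre. Muscle was collected by GFP, so it is the set of cells in which the gamma smooth muscle actin reporter was on, and epithelium by an antibody to the surface protein Epcam. Each population had 3 libraries. The labels do not say whether these came from separate litters, so p-values measure the spread between these libraries.

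The sodium pump exchanges sodium for potassium across the plasma membrane at the cost of ATP, and the sodium gradient it keeps up drives many of the other carriers described here. It is built from a catalytic alpha subunit and a beta subunit that brings the complex to the membrane, and a small FXYD protein, named after a shared amino acid motif, can join them and tune the pump. The carriers then move protons, bicarbonate, chloride, phosphate, calcium or sulfate along with or against sodium, potassium or chloride, which sets cell pH and volume and the chloride level inside the cell. In airway muscle chloride loading bears on contraction, and in airway epithelium these carriers feed fluid secretion.

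The libraries held between 11847432 and 54848820 counts. All 10 smooth muscle markers passed as higher in muscle and all 13 airway epithelial markers as higher in epithelium. Passing means an adjusted p below 0.05 by the quasi-likelihood test of edgeR, here and below. The summed level of the smooth muscle markers was 4137 to 17828 CPM (counts scaled to library size by the trimmed mean of M-values) in muscle and 122 to 154 in epithelium. That of the epithelial markers was 18.0 to 38.1 CPM in muscle and 3969 to 5616 in epithelium. Muscle replicate 2 and epithelium replicates 2 and 3 carried more counts in olfactory and vomeronasal receptor genes than the other libraries. These genes summed to 627 to 1792 CPM in these 3 libraries and to 6.47 to 36.5 CPM in the other 3. Such counts are called background counts below. In sorted bulk samples, fewer cells of a type and less RNA per cell cannot be told apart.

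Of the 64 genes, 5 passed the test as higher in muscle, among them Atp1b2, Fxyd1, Fxyd7 and Slc9a5, and 2 as higher in epithelium, among them Fxyd3, with p-values adjusted in edgeR over the 19375 genes tested. Over all tested genes 10.7% passed, 6.58% as higher in muscle and 4.11% as higher in epithelium, so the members passed about as often as genes at large. 11 of the 64 had an unadjusted p under 0.05 (edgeR), a count given without the share over all tested genes and not read further. Muscle and epithelium libraries did not overlap in 15 of the 64, 10 of them higher in muscle and 5 higher in epithelium. Over all tested genes that share was 26.9%, with 16.4% higher in muscle and 10.5% in epithelium. The median log2 fold change of muscle over epithelium was -0.30 over the 64 genes and -0.10 over all tested genes. The number higher in epithelium rested on few libraries: it was 0 without muscle replicate 3 or epithelium replicate 3, 1 without muscle replicate 1 or epithelium replicate 2, and 3 without muscle replicate 2.

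**Figure D1:**
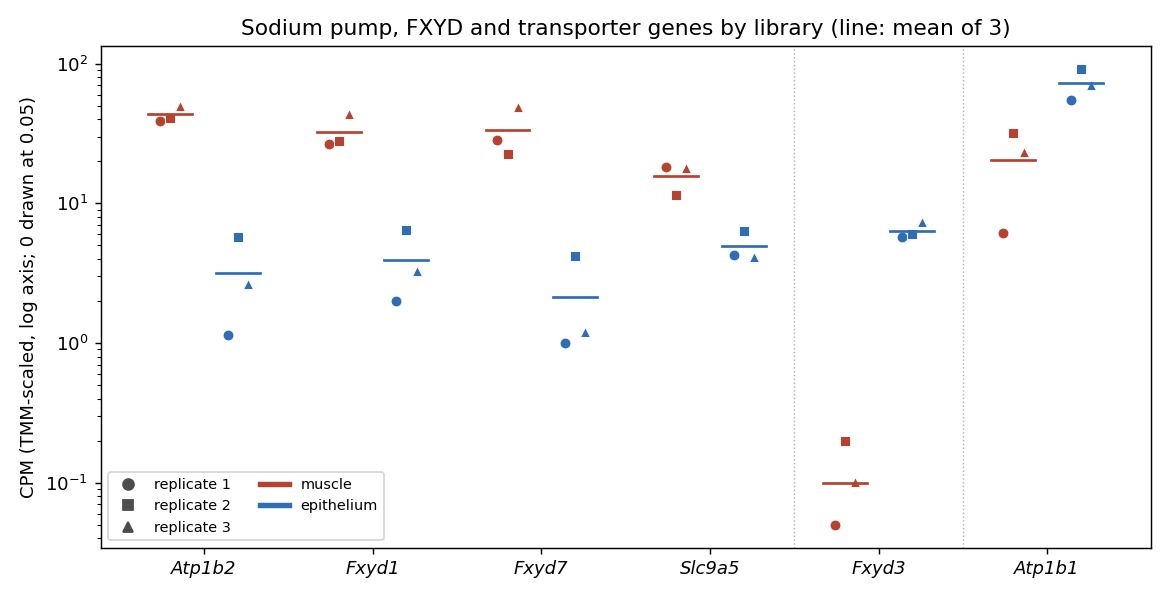
CPM in each library (log axis; symbols give the replicate, lines the mean of 3) for 5 genes that passed the test and for Atp1b1, which did not. Left of the first dotted line the muscle libraries lie above the epithelial ones, from 11.4 to 50.1 CPM against 1.00 to 6.42 CPM over the 4 genes, and right of it they lie below.

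Among the beta subunit genes, Atp1b2, the beta-2 isoform first described as an adhesion molecule of glia, was higher in muscle. In replicates 1 to 3 it had 39.1, 40.5 and 50.1 CPM in muscle and 1.13, 5.75 and 2.67 CPM in epithelium. Every muscle library was far above every epithelial one, and the log2 fold change of 3.80 ± 0.54 (SE), or 14.0-fold (adjusted p = 0.0026, edgeR), passed in all 15 alternative fits (adjusted p up to 0.015). Atp1b1, the most widespread beta subunit, ran the other way, with 6.16, 31.6 and 23.2 CPM in muscle and 55.2, 91.8 and 70.3 CPM in epithelium. Every epithelial library was above every muscle library, but muscle replicate 1 was far below the other muscle libraries, and the log2 fold change of -1.83 ± 0.51 did not pass (adjusted p = 0.055, edgeR). It passed in 5 of the 15 alternative fits, among them those without muscle replicate 1 (adjusted p = 0.039) or without muscle replicate 2 (0.027). Atp1b3, another widespread beta subunit, had 134 ± 35.1 CPM in muscle (SD, n = 3) and 138 ± 18.5 in epithelium. Its difference was smaller than the spread within either group (log2 fold change -0.04 ± 0.26, adjusted p = 0.97, edgeR). Atp1a4, the alpha isoform of sperm, was at 0 to 0.43 CPM in the libraries with few background counts. Atp1b4 was at 0.037 to 0.30 CPM there, and Atp12a, the proton pump of non-gastric epithelia, at 0.78 to 0.87 CPM.

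Levels of different genes were set side by side only after division by the length of the gene's exons. On this scale of CPM per kb, Atp1b3 took 75.9% ± 7.98 (SD, n = 3) of the beta subunit signal in muscle and 70.1% ± 8.10 in epithelium. Atp1b2 took 14.5% ± 1.12 in muscle and 0.94% ± 0.71 in epithelium, and Atp1b1 took 9.14% ± 6.61 in muscle and 28.5% ± 7.05 in epithelium. The beta sums, 73.6 ± 15.6 and 82.4 ± 6.29 CPM per kb, overlapped. Atp1b3 was the most abundant beta transcript in all 6 libraries, and the shares of Atp1b2 did not overlap between groups. With the length of the longest transcript instead, Atp1b2 took 13.4% ± 1.06 in muscle and 0.86% ± 0.64 in epithelium. These shares are descriptions with no test, since 3 libraries against 3 cannot give an exact permutation p under 0.10.

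**Figure D2:**
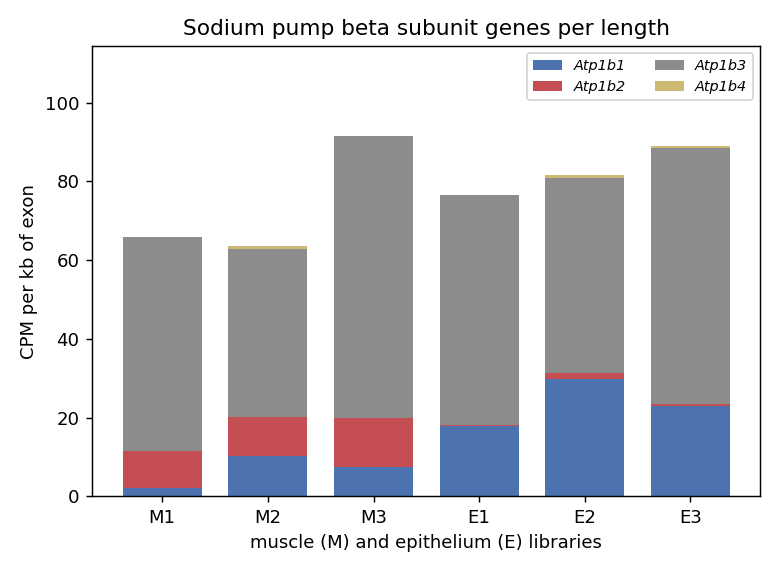
Stacked CPM per kb of exon for the 4 beta subunit genes in muscle (M1 to M3) and epithelium (E1 to E3). The red segments, Atp1b2, are wide in the muscle libraries (14.5% of the signal on average) and thin in the epithelial ones.

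Among the 7 FXYD genes, 2 passed toward muscle and 1 toward epithelium, where 6.58% and 4.11% of all tested genes did. Fxyd1 encodes phospholemman, the pump regulator of heart and skeletal muscle that is a target of protein kinases. It had 26.5, 28.0 and 43.4 CPM in muscle and 2.01, 6.42 and 3.27 CPM in epithelium, with no overlap. The log2 fold change was 3.08 ± 0.46, or 8.48-fold (adjusted p = 0.0035, edgeR). Fxyd7, known mainly from brain, had 28.3, 22.4 and 49.1 CPM in muscle and 1.00, 4.21 and 1.20 CPM in epithelium. Its log2 fold change of 4.01 ± 0.62, or 16.1-fold (adjusted p = 0.0039, edgeR), was the largest toward muscle among the 64 genes. Both passed in all 15 alternative fits, with adjusted p up to 0.019 for Fxyd1 and 0.021 for Fxyd7.

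Fxyd3, also called Mat-8 and known from epithelia and breast tumours, was the gene with the largest fitted change toward epithelium. It had 309, 90 and 197 counts in epithelium replicates 1 to 3 (5.74, 6.01 and 7.40 CPM) and 0, 4 and 4 counts in muscle replicates 1 to 3. The 3 epithelial libraries lay close together and far above the muscle libraries. The fit gave -5.96 ± 1.43 on the log2 scale (adjusted p = 0.028, edgeR), a size that rests on those few muscle counts. The call was lost without muscle replicate 1 (adjusted p = 0.054), muscle replicate 3 (0.093) or epithelium replicate 3 (0.15), and under limma-voom (0.081). The exons of Fxyd3 overlap those of Lgi4, a gene on the opposite strand, over 2059 of their 4850 bases. Lgi4 had 309, 83 and 186 counts in the epithelial libraries, nearly the counts of Fxyd3, and 5, 57 and 2 in muscle. The library kit keeps no strand in standard use, so reads in the shared bases cannot be told apart. How such reads were counted is not given in the sources used here, and how much of the value each gene holds was not tested.

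Fxyd6, known as phosphohippolin, had 107 ± 23.6 CPM in muscle (SD, n = 3) and 78.5 ± 12.1 in epithelium and did not pass (log2 fold change 0.44 ± 0.26, adjusted p = 0.40, edgeR). Fxyd2, the gamma subunit of the kidney pump, was at 2.00 to 2.15 CPM in muscle and 0.75 to 1.07 CPM in epithelium. Those groups did not overlap, but at this low level the difference did not pass (adjusted p = 0.83, edgeR). Fxyd5 (dysadherin) was at 2.13 to 2.95 CPM in muscle and 0.19 to 2.47 CPM in epithelium. Fxyd4, known from the collecting duct and colon, was at 0.30 to 0.37 CPM in the libraries with few background counts. No order of levels among FXYD genes is given, because the annotated exon length of Fxyd1 is 2186 bases over all transcripts and 668 bases for the longest one.

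The FXYD genes that differed lie close together on mouse chromosome 7. In the GRCm38 annotation (GENCODE M21), Fxyd5 (31032722 to 31042481), Fxyd7 (31042513 to 31051467), Fxyd1 (31051678 to 31057199) and Fxyd3 (31068172 to 31076704) are all on the minus strand within 43983 bases, with Lgi4 (31059342 to 31070935) on the plus strand. Only 210 bases separate Fxyd7 from Fxyd1. Within this stretch Fxyd1 and Fxyd7 were higher in muscle, Fxyd3 (with the limit above) was higher in epithelium, and Fxyd5 did not pass. Of the other genes that passed, Atp1b2 lies on chromosome 11 (69599736 to 69605942, minus strand). Slc9a5 lies on chromosome 8 (105348843 to 105369881, plus strand).

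The bases upstream of a start site are shown for Fxyd1 and Fxyd3, neighbours that differed in opposite directions, from RefSeq (GRCm38.p6). Promoter entries matched 44 of the 64 genes by symbol. The Fxyd1 stretch is chr7:31054854-31055103 and the Fxyd3 stretch chr7:31076698-31076947, each 250 bases on the minus strand, read 5′ to 3′ and ending at the base before the start. The start used for Fxyd1 lies inside the annotated gene, and 7 bases of the Fxyd3 stretch are in an annotated exon of Fxyd3.
Fxyd1: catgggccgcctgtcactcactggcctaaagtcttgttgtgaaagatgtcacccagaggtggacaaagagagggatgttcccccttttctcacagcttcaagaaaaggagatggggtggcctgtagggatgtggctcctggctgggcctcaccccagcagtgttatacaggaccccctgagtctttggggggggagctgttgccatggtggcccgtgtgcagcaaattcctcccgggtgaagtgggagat
Fxyd3: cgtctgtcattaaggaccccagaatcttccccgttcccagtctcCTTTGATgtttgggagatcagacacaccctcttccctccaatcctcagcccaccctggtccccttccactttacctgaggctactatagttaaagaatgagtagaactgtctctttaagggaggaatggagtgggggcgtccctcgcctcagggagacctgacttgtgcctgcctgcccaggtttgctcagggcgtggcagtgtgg
Capitals mark the only match to 6 motifs searched on both strands: CTTTGAT (TCF/LEF), TGTTTAC (FOXA), GGGCGG (GC box), CAGCTG (E-box), TATAAA and the CArG box by its name. The match in Fxyd3 spans bases 206 to 200 before the start. CTTTGAT occurs in 3.21% of the 32851 promoter stretches of this length and the CArG box in 1.47%, so the match is a description of these letters and no more.

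Of the sodium-proton exchanger genes (Slc9), Slc9a5 was higher in muscle. It encodes the NHE5 isoform known mainly from neurons, and had 18.2, 11.4 and 17.8 CPM in muscle and 4.29, 6.35 and 4.13 CPM in epithelium. All muscle libraries were higher, and the log2 fold change was 1.69 ± 0.39, or 3.22-fold (adjusted p = 0.026, edgeR). The call was lost when muscle replicate 1 (adjusted p = 0.15) or muscle replicate 3 (0.15) was left out, likewise epithelium replicate 1 (0.070) or 3 (0.15), with library totals only (0.087), and in the 3 libraries with few background counts (0.054). Per length, Slc9a5 took 13.6% ± 1.86 (SD, n = 3) of the Slc9 signal in muscle and 4.68% ± 1.35 in epithelium.

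The exchangers of inner membranes described here did not pass. Slc9a8, of the Golgi, had 39.8 ± 14.3 CPM in muscle (SD, n = 3) and 54.5 ± 9.86 in epithelium (log2 fold change -0.45 ± 0.30, adjusted p = 0.50, edgeR). Slc9a7, of the trans-Golgi, was at 0.33 to 0.91 CPM in muscle and 3.54 to 6.32 CPM in epithelium. Muscle was below epithelium in every library, and the change of -2.97 ± 1.07 on the log2 scale missed the threshold (adjusted p = 0.13, edgeR), but it passed in 3 of the 15 alternatives, DESeq2 (0.00044) among them. Slc9a9, an endosomal exchanger, was at 6.62 to 12.4 CPM in muscle and 3.53 to 6.22 CPM in epithelium, without overlap, but did not pass (adjusted p = 0.44, edgeR), nor in any alternative. Slc9a2, Slc9a3 and Slc9a4, which serve transport in kidney and gut epithelium, were listed at 0 in muscle replicates 1 and 3, and Slc9a3 and Slc9a4 also in epithelium replicate 1. A floor of 3 counts stands for 0.056 to 0.11 CPM in these libraries.

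The cation-chloride cotransporters (Slc12) set the chloride level of the cell. Slc12a4, the widespread potassium-chloride cotransporter KCC1, was 104, 94.5 and 134 CPM in muscle and 77.5, 68.9 and 55.1 CPM in epithelium. Here the muscle libraries were the higher ones without overlap, but the log2 fold change of 0.72 ± 0.25 did not pass (adjusted p = 0.11, edgeR) and passed in 1 alternative, DESeq2 (0.045). Slc12a2, the NKCC1 cotransporter that loads chloride into smooth muscle and secretory epithelium, had 34.8 ± 5.63 CPM in muscle (SD, n = 3) and 36.9 ± 7.56 in epithelium. Slc12a7 (KCC4) had 79.3 ± 18.1 and 93.2 ± 35.6 CPM, and Slc12a9 had 28.7 ± 8.38 and 24.6 ± 6.05 CPM. None of these 3 differed by more than its spread (edgeR adjusted p of 0.94, 0.87 and 0.87). Per length, Slc12a4 took 57.3% ± 4.33 of the Slc12 signal in muscle and 40.4% ± 4.83 in epithelium, and was first in all 6 libraries. Slc12a2 took 7.15% ± 1.37 and 8.73% ± 1.76. The Slc12 sum was 44.9 ± 4.84 CPM per kb in muscle and 38.7 ± 1.99 in epithelium. With the length of the longest transcript instead, Slc12a4 took 48.0% ± 4.20 in muscle and 31.7% ± 4.08 in epithelium, still first in all 6 libraries. The kidney cotransporters Slc12a1 and Slc12a3 were at 0 to 0.34 CPM in the libraries with few background counts. Slc12a5, the neuronal KCC2, was at 2.01 to 2.53 CPM there, and Slc12a8 at 0.48 to 1.44 CPM.

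None of the 10 bicarbonate transporter genes (Slc4) passed in edgeR, where 10.7% of all tested genes did. With so few genes that count is not read as a result about the family. None had an unadjusted p under 0.05 or passed with DESeq2 or limma-voom. Slc4a2, the anion exchanger AE2 that trades chloride for bicarbonate, had 89.1 ± 24.6 CPM in muscle (SD, n = 3) and 90.0 ± 16.9 in epithelium. Slc4a3 (AE3) had 44.8 ± 10.4 and 38.4 ± 11.5 CPM. Slc4a7, a sodium-bicarbonate cotransporter, had 34.4 ± 8.87 and 37.3 ± 6.38 CPM. All 3 overlapped between groups, with log2 fold changes of -0.01 ± 0.28, 0.22 ± 0.29 and -0.12 ± 0.27. Slc4a2 led the family per length in every library, with 48.1% ± 9.05 in muscle and 45.6% ± 6.78 in epithelium. With the length of the longest transcript it also led, with 56.9% ± 8.71 and 54.4% ± 6.89. Slc4a5, an electrogenic sodium-bicarbonate cotransporter, was at 2.15 to 6.54 CPM in muscle and 7.85 to 9.50 CPM in epithelium without overlap, and did not pass (adjusted p = 0.36, edgeR). Slc4a4 (6.58 to 18.5 CPM in muscle, 5.19 to 17.2 in epithelium) and Slc4a8 (7.26 to 11.1 and 9.13 to 9.96 CPM) overlapped. Slc4a1, band 3 of red blood cells, was at 0.074 to 0.25 CPM in the libraries with few background counts. Slc4a9 and Slc4a10 were at 0.076 to 0.32 CPM there and Slc4a11 at 0.84 to 1.52 CPM. Of the erythroid list, the 4 adult globin genes were listed at 0 in all 6 libraries, but the embryonic globin Hbb-y was at 5.59 to 34.7 CPM. Why the 4 were at 0 was not tested.

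The phosphate, calcium and sulfate carriers gave no call in edgeR, where 10.7% of all tested genes passed. With so few genes this is not read as a result about the families. No gene of these families had an unadjusted p under 0.05 or passed with DESeq2. With limma-voom 2 passed, Slc24a3 and Slc26a7, described below. The phosphate carriers Slc20a1 and Slc20a2, which cells use for phosphate uptake and viruses as receptors, had 55.3 ± 10.6 and 75.7 ± 11.8 CPM in muscle (SD, n = 3) and 63.1 ± 4.62 and 69.4 ± 14.0 CPM in epithelium. Both overlapped, with log2 fold changes of -0.19 ± 0.23 and 0.12 ± 0.25. Slc26a2, the sulfate carrier that cartilage needs for its proteoglycans, had 31.8 ± 3.58 CPM in muscle and 21.3 ± 5.29 in epithelium. Every muscle library was above every epithelial one, but the log2 fold change of 0.58 ± 0.26 missed the threshold (adjusted p = 0.24, edgeR). Slc26a11, another sulfate carrier, had 19.2 ± 4.30 and 14.2 ± 1.63 CPM (0.43 ± 0.29, adjusted p = 0.52, edgeR). Slc26a6, which exchanges chloride for bicarbonate and oxalate, was at 10.1 to 21.1 CPM in muscle and 8.22 to 12.6 CPM in epithelium, with overlap. Slc26a1 was at 5.19 to 6.14 CPM in muscle and 3.14 to 4.47 CPM in epithelium without overlap, and did not pass (adjusted p = 0.84, edgeR).

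The calls of a pair of genes from these families changed with the fit. Slc24a3, a potassium-dependent sodium-calcium exchanger expressed in smooth muscle, had 10.3, 16.6 and 26.6 CPM in muscle and 0.93, 12.2 and 4.32 CPM in epithelium. Slc26a7, an anion exchanger, had 7.03, 21.6 and 10.9 CPM in muscle and 0.37, 8.76 and 2.10 CPM in epithelium. In both, epithelium replicate 2 reached into the range of the muscle libraries, and neither passed (adjusted p = 0.28 and 0.35, edgeR). Without epithelium replicate 2 both passed, each at an adjusted p of 0.041 (edgeR). On all 6 libraries both also passed with limma-voom, and Slc26a7 with the covariate for background counts. Slc24a3 passed in 3 and Slc26a7 in 4 of the 15 alternative fits. These 2 were singled out after their values were seen.

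**Figure D3:**
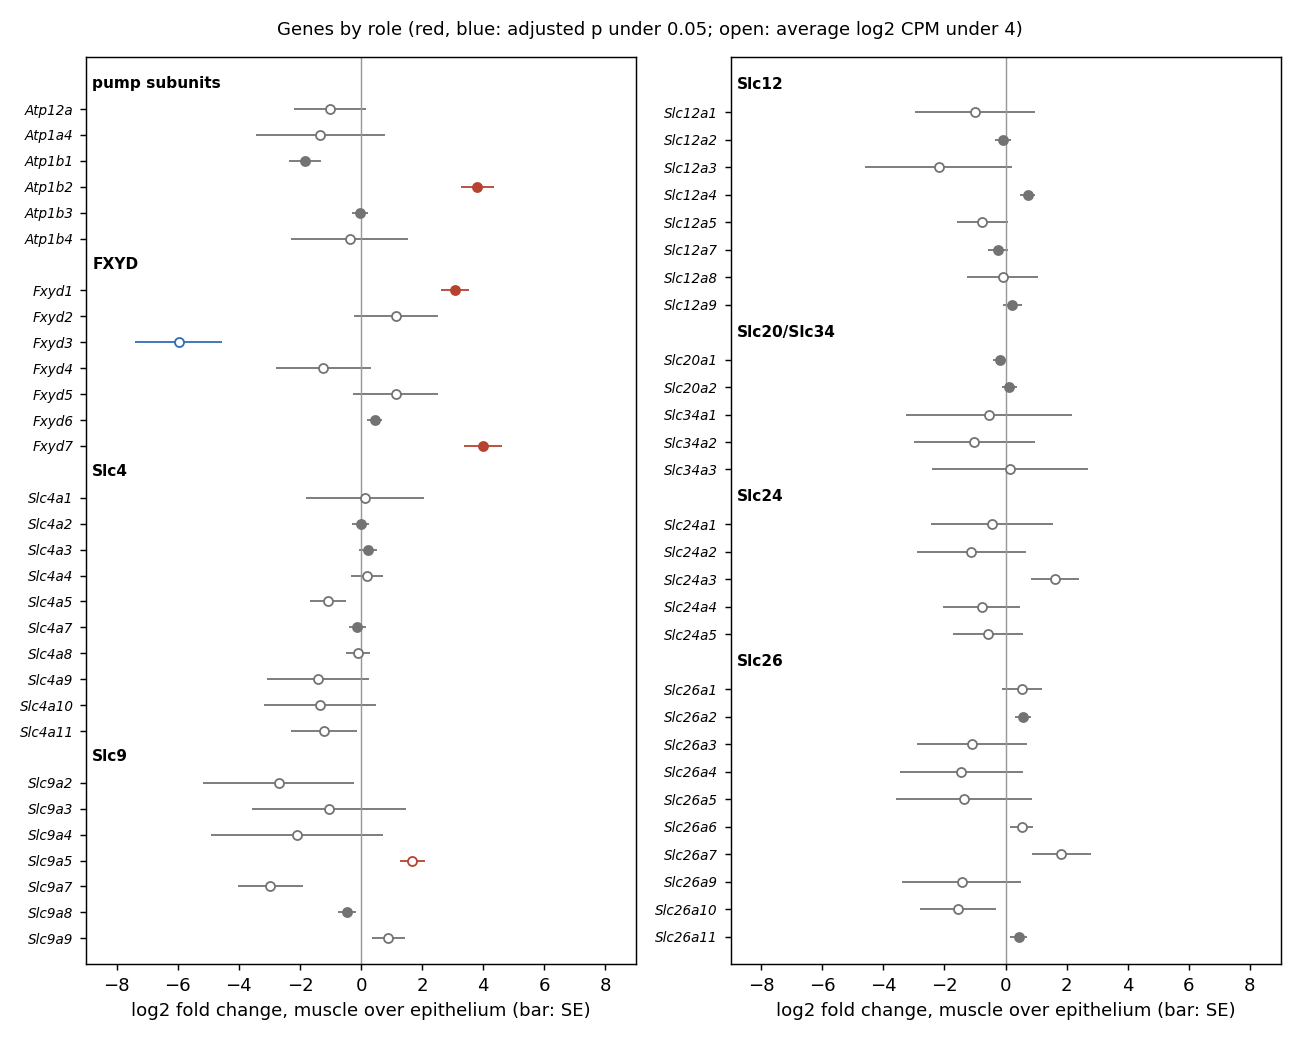
Log2 fold change of muscle over epithelium (bars: SE) for 58 of the 64 genes, grouped by role, with red and blue for those at an adjusted p under 0.05 and open circles for an average log2 CPM under 4. The coloured points sit in the pump and FXYD groups except Slc9a5, and most open circles have bars that cross 0.

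The low genes moved with the background counts across libraries. Of the 64 genes, 41 had an average log2 CPM under 4, and in 28 of these each of muscle replicate 2 and epithelium replicates 2 and 3 lay above each of the other 3 libraries. No gene of the 23 that averaged 4 or more on that scale had this pattern. Over all tested genes it held in 54.5% of those under 4 and in 0.47% of the others. The median level of the 41 genes was 0.53, 4.34 and 0.43 CPM in muscle replicates 1 to 3 and 0.37, 6.35 and 3.64 CPM in epithelium replicates 1 to 3. Among the 28 were Atp12a, Atp1a4, Atp1b4, Fxyd4, Slc4a1, Slc4a8 to Slc4a11, Slc9a2 to Slc9a4, Slc12a1, Slc12a3, Slc12a5, Slc12a8, Slc24a1, Slc24a2, Slc24a4, Slc26a3 to Slc26a5, Slc26a9, Slc26a10 and Slc34a1 to Slc34a3. For these a difference between muscle and epithelium was not detectable. In the 3 libraries with few background counts, the Slc34 genes were at 0 to 0.53 CPM, Slc24a1, Slc24a2 and Slc24a4 at 0 to 1.24 CPM, and Slc26a3, Slc26a4, Slc26a5, Slc26a9 and Slc26a10 at 0 to 1.10 CPM. The part of the background counts in these values was not tested. The remaining low gene not yet given, Slc24a5, a carrier of pigment cells, was at 1.30 to 3.41 CPM in all 6 libraries. Among the 23 genes at the higher level 5 passed, and 18.3% of all tested genes at that level did.

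**Figure D4:**
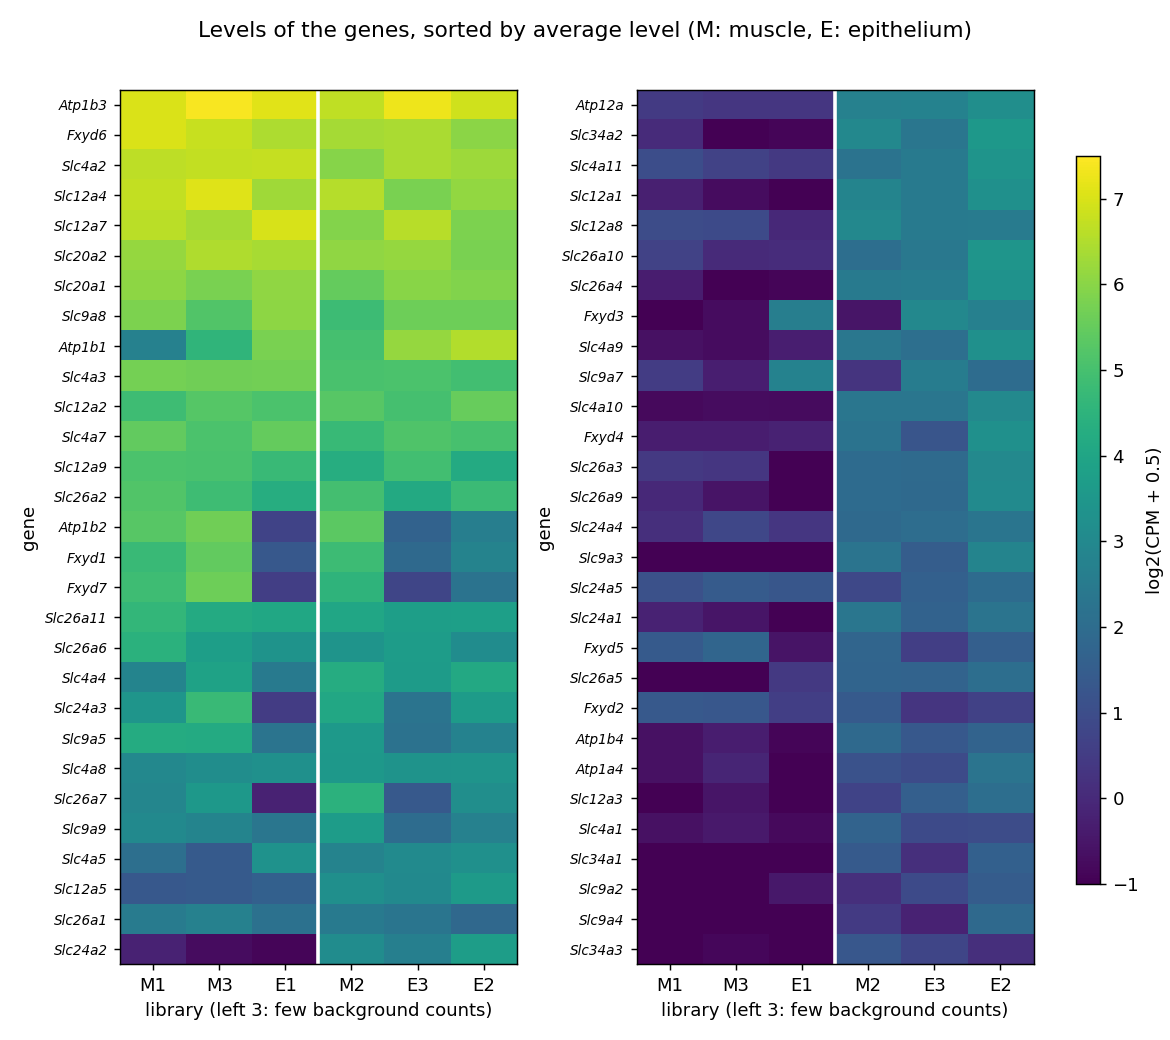
Log2(CPM + 0.5) of 58 of the 64 genes, sorted by average level from top left to bottom right, with the 3 libraries that have few background counts left of the white line. In the right panel most genes are dark on the left (median 0.37 to 0.53 CPM over the low genes) and lighter on the right (3.64 to 6.35 CPM), whichever the tissue.

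The file header gives 1 date for all 6 libraries. It also holds an identifier for each library with digits that look like a day and month, which are earlier in both replicates numbered 2 than in the other 4 libraries. The header does not say what these digits are, and the replicates numbered 3 write them in another form and with no year, so the split they give was read only as a possible batch. Within the 4 libraries with the later digits, 2 per group, all 7 calls held. The log2 fold changes were 4.51 for Atp1b2 (adjusted p = 0.0035, edgeR), 3.66 for Fxyd1 (0.0045) and 5.07 for Fxyd7 (0.0014). They were 2.02 for Slc9a5 (0.013), -6.87 for Fxyd3 (0.022) and -2.17 for Atp1b1 (0.067). The earlier digits stand on 1 library per group, so those differences have no test. On the log2(CPM + 0.5) scale they were 2.72, 2.04 and 2.28 for Atp1b2, Fxyd1 and Fxyd7, and 0.80, -3.22 and -1.52 for Slc9a5, Fxyd3 and Atp1b1. The direction was the same in both sets of libraries for these 6 genes.

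**Figure D5:**
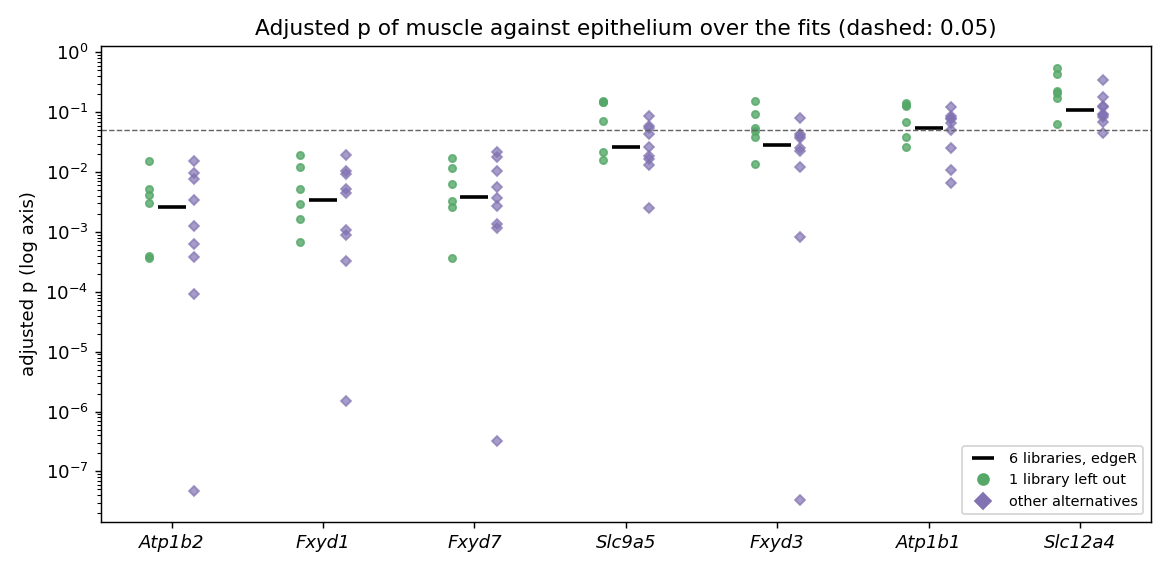
Adjusted p (log axis) of muscle against epithelium with all 6 libraries (black), with 1 library left out (green) and under the other alternatives (purple), for 5 genes that passed, Atp1b1 and Slc12a4. For Atp1b2, Fxyd1 and Fxyd7 every point lies under the dashed line at 0.05, and for the other 4 genes points lie on both sides.

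Because Atp1b2, Fxyd1 and Fxyd7 are known from skeletal muscle or from neurons and glia, the markers of those cells were read beside them. The 12 neural and glial markers summed to 37.4 to 92.1 CPM in muscle and 33.1 to 94.4 CPM in epithelium, and none of the 11 tested passed in edgeR (1 had an unadjusted p under 0.05, none passed with DESeq2 and 1 with limma-voom). These ranges overlapped, and the upper end of each was replicate 2 of its group, a library rich in background counts. Stmn2, the gene with that unadjusted p, did not overlap between groups. It was at 12.6 to 16.4 CPM in muscle and 1.80 to 8.15 CPM in epithelium (adjusted p = 0.13, edgeR). The other neural and glial markers overlapped. Of 10 skeletal muscle markers tested, Actc1, Acta1, Tnnt1 and Tnnc1 were higher in muscle, the actin genes among them also being expressed by smooth muscle. The skeletal list summed to 1593, 408 and 1338 CPM in muscle replicates 1 to 3 and to 11.9, 185 and 81.7 CPM in epithelium. Myog, a defining regulator of skeletal muscle, was at 245, 1.20 and 17.3 CPM in muscle replicates 1 to 3, and Myod1 at 62.1, 0.50 and 3.82 CPM. Much of the skeletal sum was Actc1 (722, 204 and 948 CPM in muscle replicates 1 to 3) and Acta1 (379, 70.7 and 315 CPM). Ttn ran otherwise, at 37.0, 74.7 and 5.21 CPM. The smooth muscle list summed to 16896, 4137 and 17828 CPM in the same order. In that order too, Atp1b2 had 39.1, 40.5 and 50.1 CPM, Fxyd1 26.5, 28.0 and 43.4 CPM and Fxyd7 28.3, 22.4 and 49.1 CPM. The part that skeletal muscle, neural or glial cells have in these values was not tested.

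Markers of other cells that a sort could hold were read in the same way. Endothelial markers summed to 76.7 to 105 CPM in muscle and 2.88 to 71.6 CPM in epithelium, with Esam higher in muscle among 9 tested. Cartilage markers summed to 787 to 1368 and 254 to 546 CPM, with Sox9, Col9a1 and Col9a2 of 9 higher in muscle. Mesothelial markers summed to 3.53 to 18.9 and 171 to 408 CPM, with Krt19 of 6 higher in epithelium. Most of the epithelial sum was Krt19 itself (154, 391 and 222 CPM in replicates 1 to 3), while Wt1 overlapped between groups. Oesophageal markers summed to 1.29 to 12.4 and 54.6 to 91.9 CPM, with Trp63 of 5 higher in epithelium. Trp63 made up most of that epithelial sum (71.8, 65.6 and 40.3 CPM), so each of these 2 sums mainly follows 1 gene. Immune markers (3.80 to 44.0 and 4.24 to 34.2 CPM) and erythroid markers (26.5 to 48.5 and 14.4 to 36.6 CPM) overlapped between groups, with no call in edgeR, DESeq2 or limma-voom among 8 and 7 tested and none at an unadjusted p under 0.05. The part these cells have in the values of the 64 genes was not tested.

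Genes that work with these carriers were taken whole from lists by pathway, which were set with earlier results of these data known. The counts called in each list stand beside 10.7% of all tested genes, 6.58% toward muscle and 4.11% toward epithelium. A list of 6 pump partners held Nkain1 to Nkain4, Pln and Sln, of which Pln and Sln act on calcium pumps (Atp2a), not the sodium pump. Of these 6 genes, 1 was higher in muscle, Nkain4, a member of a gene family named for its interaction with the sodium pump. Nkain4 had 146, 102 and 151 CPM in muscle and 5.45, 17.2 and 3.15 CPM in epithelium. Its log2 fold change was 3.97 ± 0.60, or 15.7-fold (adjusted p = 0.0035, edgeR), and it passed in all 15 alternative fits. Every muscle library of Nkain4 was above every epithelial one, as for Atp1b2, Fxyd1 and Fxyd7. Over all tested genes 16.4% had such a lack of overlap with muscle higher. Of 10 partners of the Slc9 and Slc4 carriers, 1 was higher in epithelium: Ezr, which encodes ezrin, the linker of apical membrane proteins to actin, at 13.5 ± 3.59 CPM in muscle (SD, n = 3) and 299 ± 33.1 in epithelium (log2 fold change -4.47 ± 0.30, adjusted p = 9.6e-05, edgeR). The scaffold genes Slc9a3r1 and Slc9a3r2 did not pass.

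Of 16 carbonic anhydrase genes, which supply bicarbonate and protons to the carriers, 2 passed, both toward muscle, a share near that of all tested genes. Car2, the main soluble form, had 16.8, 43.7 and 63.7 CPM in muscle and 2.36, 8.69 and 3.08 CPM in epithelium (log2 fold change 3.16 ± 0.62, adjusted p = 0.012, edgeR). Car11, a member without enzyme activity, had 23.5 ± 1.90 and 8.38 ± 2.90 CPM (1.49 ± 0.33, adjusted p = 0.020, edgeR). Car2 no longer passed without epithelium replicate 3 (0.067) or in the 3 libraries with few background counts (0.051). Car11 no longer passed without muscle replicate 1 (0.059), muscle replicate 3 (0.061) or epithelium replicate 3 (0.105), with library totals only (0.115) or in the 3 libraries with few background counts (0.054). Of 16 other ion-coupled carriers and pumps, 3 were higher in muscle: the sodium-calcium exchanger Slc8a1 (log2 fold change 1.53 ± 0.38, adjusted p = 0.032, edgeR) and the plasma membrane calcium pumps Atp2b4 (1.30 ± 0.30, 0.024) and Atp2b1 (0.94 ± 0.26, 0.048). The other exchangers and pumps of these families at the plasma membrane did not pass, with log2 fold changes of -0.39 ± 0.77 for Slc8a2, -0.02 ± 0.82 for Slc8a3, -1.38 ± 1.68 for Atp2b2 and -2.67 ± 2.05 for Atp2b3. Slc8a1 no longer passed without muscle replicate 3 (0.082), epithelium replicate 1 (0.058) or epithelium replicate 3 (0.15), nor with RLE scaling (0.070) or library totals only (0.147). Atp2b4 no longer passed when muscle replicate 1 (0.059) or 3 (0.083), or epithelium replicate 1 (0.072) or 3 (0.101), was left out, nor with library totals only (0.077). Atp2b1 passed only without muscle replicate 2 among the fits that left out a library, with an adjusted p of up to 0.21 in the others, and missed the threshold with no filter (0.052) and in the 3 libraries with few background counts (0.063). None of the 12 genes of the WNK and SPAK/OSR1 kinase pathway, which phosphorylates the Slc12 cotransporters, passed in edgeR. 2 of them had an unadjusted p under 0.05, 2 passed with DESeq2 and 1 with limma-voom. The summed level of that pathway was 285 to 376 CPM in muscle and 302 to 362 CPM in epithelium.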

How the data were processed

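RNA was measured in 6 libraries, 3 of sorted muscle and 3 of sorted epithelium. Per the labels' protocols, cells were dissociated with TrypLE, stained for Epcam and sorted, and RNA was extracted with Trizol, amplified with the SMART-Seq v4 kit and made into Nextera XT libraries. The authors deposited whole-number counts per gene symbol. Per the submitters' processing notes, the build was mm10 and Trim Galore, Bowtie2, Cufflinks and DESeq were used. Versions, the annotation and the counting settings are not given in the sources used here. Of counts between 1 and 19, 73.8% to 79.6% were even, so the floor of 3 counts per library may stand for fewer read pairs.

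Counts were tested as deposited in edgeR 4.0.16 by its quasi-likelihood test, two-sided (R 4.3.3; filterByExpr, TMM scaling, robust fit, no covariate), adjusted by Benjamini-Hochberg over all tested genes, threshold 0.05. SE came from the test statistic. CPM used TMM-scaled totals. Exon lengths and positions came from GENCODE M21 (64 of 64 symbols matched). The test was checked on simulated data. Alternatives were RLE scaling, library totals, no filter, DESeq2 1.42.0, limma-voom (limma 3.58.1), a replicate block, each library left out, the 4 libraries with later digits in the header identifiers, a covariate for background counts and, added after the data were seen, the 3 libraries with few background counts and the length of the longest transcript. Genes named with statistics were those that passed and those averaging 4 or more on the log2 CPM scale; the others have ranges, and non-overlapping ones also a p. The members, lists and motifs were chosen with earlier results of these data known. Results of some members are not reported here; counts over the 64 genes include them.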

Additional observations from a re-analysis of the deposited data

How the results depend on the processing

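Atp1b2, Fxyd1 and Fxyd7 kept their direction and call in all 15 alternative fits. The number of members higher in muscle was 5 in the reported fit, 4 to 7 over the fits without 1 library and 4 to 7 over the other alternatives. The number higher in epithelium was 2, and 0 to 3 without 1 library. DESeq2 gave 6 higher in muscle and 4 in epithelium. The number in epithelium was 0 without muscle replicate 3 or epithelium replicate 3. The labels do not say whether equal replicate numbers mark paired libraries. Deviations from the group means correlated at 0.59 and 0.73 for the numbers 1 and 2 but at -0.57 for the number 3. Epithelium replicate 1 correlated best with muscle replicate 3 (0.69). Correlations were positive where both libraries had few or both had many background counts, and negative otherwise. They therefore cannot decide whether the numbers mark pairs. With the replicate block 4 members were higher in muscle and 3 in epithelium, Slc9a5 being lost (adjusted p = 0.059) and Atp1b1 gained (0.026). Over all genes 2071 passed, against 3539 with DESeq2, 1323 without muscle replicate 1 and 1169 without epithelium replicate 3.

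Among the genes given with statistics, signs turned in those below, whose reported log2 fold changes lay between -0.23 and 0.22, and the cause was not tested. With library totals only, which moved the median log2 fold change of all genes to -0.33, the log2 fold change was -0.061 for Slc12a9, -0.12 for Slc20a2 and -0.043 for Slc4a3. In the 4 libraries with the later header digits Slc20a2 was at -0.017 and Slc4a2 at 0.012, and Slc4a2 was at 0.0091 with no filter. In the 3 libraries with few background counts Slc20a2 was at -0.24 and Slc4a3 at -0.20. Without 1 library, fold changes ranged from -0.24 to 0.14 for Atp1b3, -0.29 to 0.062 for Slc12a2, -0.57 to 0.072 for Slc12a7, -0.022 to 0.45 for Slc12a9, -0.079 to 0.29 for Slc20a2, -0.20 to 0.21 for Slc4a2, -0.0074 to 0.51 for Slc4a3 and -0.31 to 0.062 for Slc4a7. Signs also turned in low genes given as ranges, which passed in no fit. Examples are Atp1a4, Slc26a3, Slc26a9 and Slc24a2: the highest log2 fold change over the alternatives was 6.49 for Atp1a4 (reported -1.34), 7.94 for Slc26a3 (-1.10), 6.66 for Slc26a9 (-1.44) and 2.40 for Slc24a2 (-1.12). The part of background counts in this was not tested. The 3 libraries a group limit the precision of every fold change.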
